A study of Mus musculus with 2 samples.

Results

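The 30 genes described here are named for B cells: the parts of the B cell antigen receptor, the transcription factors that set B cell identity, the surface receptors that raise or damp receptor signalling, and the kinases and adapters that carry the signal. They were chosen by gene name, as all gene spots on the arrays that carry 1 of the 30 names. They are 30 of 30119 gene names on the array, and they were read by 41 probes in 59 spots on each array.

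The study compared 1 library of sorted regulatory T (Treg) cells labelled Nr4a-deficient with 1 library of sorted wild-type Treg cells, both from mice 5 weeks old. Nr4a1, Nr4a2 and Nr4a3 encode orphan nuclear receptors that are induced by antigen receptor signalling, and the protocol names the mutant animals Nr4a-TKO. The cells were lysed straight after the sort with no culture, and the RNA of each library was read on an Agilent array of its own with 1 dye. The strain, tissue, sort markers, number of animals, the deleted stretches of the Nr4a genes and any Cre driver are not given in the sources used here.

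In B cells, the membrane immunoglobulin signals through the paired chains Cd79a and Cd79b, whose cytoplasmic tails are phosphorylated by Lyn and Blk and then bind Syk. Btk and the adapters pass the signal on, while surface proteins such as Cd22, Cd72 and Fcgr2b recruit phosphatases that limit it. Pax5, Ebf1, Pou2f2 and Pou2af1 are transcription factors of the B lineage. Several of the 30 genes, among them Syk, Lyn, Btk, Fcgr2b, Cd180 and Ly86, are also known to be expressed in myeloid or plasmacytoid dendritic cells, so their transcripts do not mark B cells alone.

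The levels are processed signals, the brightness of a probe after the scanner software subtracted background, in arbitrary units. Signals are given as read on each array, and each is followed where stated by the error that the scanner software assigned to it. Where 2 signals follow each other, the first is from the library labelled Nr4a-deficient and the second from the wild-type one. A difference is taken on the log2 scale after each signal was divided by its own array's 75th percentile over gene probes. These percentiles were 1762 and 2047, so equal raw signals correspond to a small positive difference. A positive difference means a higher level with the label Nr4a-deficient. There was 1 library per group, so no difference has a replicate check, no p-value is given, and the scanner error covers the reading of the spot and not the spread between animals. A gene was counted as higher or lower when the difference reached 2-fold. Where a gene was not well above background on 1 array, the fold was taken against the lowest signal called above background there and is written "at least".

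The probes that carried the values can be shown by the first 30 of their 60 bases. They are given 5′ to 3′ with the mm9 interval of the whole probe from the array design. Ms4a1, Cd79a and Cd79b are shown because they define B cells.

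Ms4a1, chr19:11325367-11325426: gctgtgctttgagattctttccaaatggca

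Cd79a, chr7:25686823-25686882: cctcctcccagatctgtcatggccacttaa

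Cd79b, chr11:106172780-106172839: agagacttgttggaatctgcaaatggactc

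The next 6 probes read the genes that were at least 2-fold higher with the label Nr4a-deficient under every alternative that gives them a value, and the Fcrl1 probe read the gene with the most negative one. The interval of the Siglecg probe is longer than the probe itself, as for a probe that crosses a splice junction.

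Fcrla, chr1:172848103-172848162: ctgttcgagtgtaaataaatgcatacaggg

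Fcgr2b, chr1:172890988-172891047: acttctgtgagtcctgaaaccaacagacac

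Siglecg, chr7:50668051-50673194: cacgatcctggactacatcaatgtggtccc

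Hhex, chr19:37514969-37515028: tctcacacgaactagaaatagcaggacaat

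Ly86, chr13:37510701-37510760: cctgagtagtcttgaagccctattgtagta

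Pou2af1, chr9:51048121-51048180: gcatccaaacagatttcctccagagcctca

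Fcrl1, chr3:87195973-87196032: tacttttgataactgacggacattaaagtt

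The 2 probes for Cd72 overlap by 49 bases and are not independent readings. The capitals mark the 19 bases that the first 30 bases of both probes share.

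Cd72 first probe, chr4:43460607-43460666: tgagtggatggATGGCCCGGAGCCAGCCAG

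Cd72 second probe, chr4:43460596-43460655: ATGGCCCGGAGCCAGCCAGgcagttttatt

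The promoters of the genes were set beside these probes because the octamer, ATGCAAAT, is the element bound by Pou2f2 and its cofactor Pou2af1, and TCCCNNGGGA is the palindromic element of Ebf1. Both were searched on both strands in the 250 bases before each RefSeq start site in GRCm38.p6, where 25 of the 30 genes had an entry. Promoters on 1 chromosome were left out of the search, and none of the 30 genes lies on it. The octamer was found in 2 of these 25 genes (8%), Cnr2 and Vpreb3, against 1.81% of the 27025 genes searched. The Ebf1 element was found in 1 of 25 (4%), Cd22, against 0.914% of the genes searched. The stretches below are the 100 bases before the start site on the gene's own strand, with the match in capitals.

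Cnr2, chr4:135895089-135895188, plus strand: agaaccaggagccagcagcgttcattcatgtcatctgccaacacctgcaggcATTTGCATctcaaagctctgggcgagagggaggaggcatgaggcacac

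Vpreb3, chr10:75948200-75948299, plus strand: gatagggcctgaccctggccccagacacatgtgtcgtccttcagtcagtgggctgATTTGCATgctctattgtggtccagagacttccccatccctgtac

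Cd22, chr7:30879029-30879128, minus strand: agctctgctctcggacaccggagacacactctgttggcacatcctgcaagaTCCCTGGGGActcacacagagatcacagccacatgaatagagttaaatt

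The match lies 48 bases before the start in Cnr2, 45 in Vpreb3 and 49 in Cd22. The differences of these 3 genes were 0.24, -0.07 and 0.44 on the log2 scale, all within 2-fold. A match of letters is a description of the window and not a binding site.

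Both arrays came through with similar shares of probes well above background, 58.7% and 55.6%, and no spot was saturated. The labels were checked first. Nr4a1 read 80407 under the label Nr4a-deficient and 51441 under wild-type, a 1.82-fold difference in the direction opposite to the label, and the brighter Nr4a2 probe read 3134 and 1850. The Nr4a3 probe passed the background call on neither array, at 22.3 and 71.6. Whether these probes lie inside the deleted stretches is not known from the sources used here, so they do not settle the label. Of the T cell and Treg genes, Cd3e (109161 and 111548), Cd4 and Ctla4 were well above background on both arrays, while Foxp3, the defining factor of Treg cells, was close to background with 74.5 and 85.4. The 8 spike-in control probes above background on both arrays differed by 0.37 ± 0.058 (SD, n = 8 probes) on the scaled arrays, with the higher reading under the label Nr4a-deficient. Taking the spike-ins as the scale therefore lowers every difference below by 0.37.

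The transcripts of 28 of the 30 genes were well above background on at least 1 array, 25 of them on both. Cd180, Fcgr2b and Pik3ap1 passed only on the array of the library labelled Nr4a-deficient, and no gene passed only on the wild-type array. Pax5 and Blk passed on neither. Of the 28, 8 (28.6%) were at least 2-fold higher with the label Nr4a-deficient, where 4.70% of the 18540 detected genes were. None was at least 2-fold lower, where 4.94% of the detected genes were, and 20 were counted as neither. Of these 20, Pik3ap1 has only a bound, at least 1.84-fold, so it may lie past 2-fold. Their median difference was 0.65 on the log2 scale, beside 0.0033 for all detected genes at their measured values. With scaling by the spike-ins, the median of the 28 fell to 0.28 and 6 were at least 2-fold higher. Fewer cells of a type and less RNA per cell cannot be told apart in such bulk samples.

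**Figure D1:**
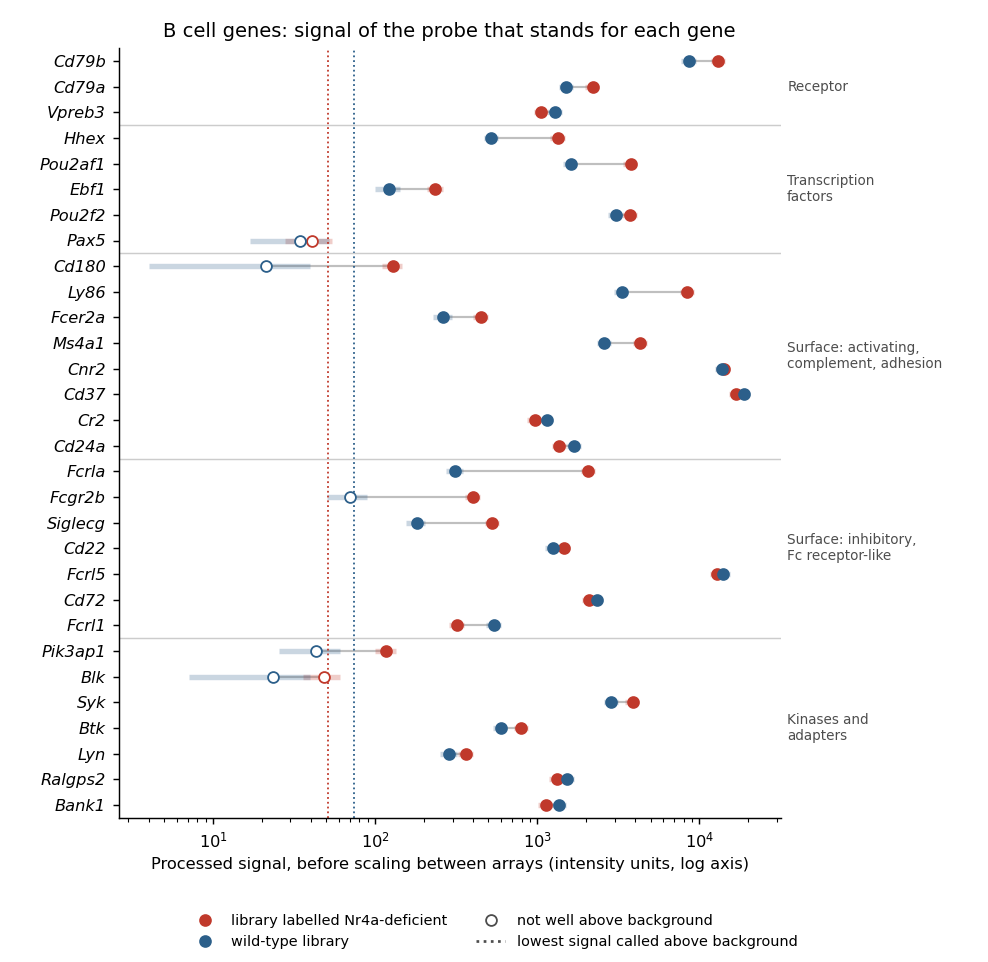
Processed signal (log10 axis, arbitrary units) of each of the 30 genes on the arrays labelled Nr4a-deficient and wild-type, 1 library per group, ordered by role. Bars on the points are the scanner software's error, open points are not well above background, and dotted lines are the lowest signal called above background on each array. Fcrla (2064 and 313) and Fcgr2b (399.7 and 69.95) lie far apart between the arrays, while Cd37, Cnr2 and Fcrl5 are bright on both.

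The chains of the receptor complex were present on both arrays and each was within 2-fold. Cd79b, which pairs with Cd79a to signal from membrane immunoglobulin, read 13074 and 8615, a difference of 0.82 ± 0.20 (scanner error). Cd79a read 2197 and 1515, a difference of 0.75 ± 0.20, and a second, dimmer Cd79a probe read 180.3 and 117 with a difference of 0.84 ± 0.29. Both chains and both Cd79a probes were thus higher in the same library by a similar amount. Vpreb3, a chaperone of the immature receptor that is made by B cell precursors, read 1062 and 1291, a difference of -0.07 ± 0.21. This difference is smaller than its scanner error.

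Ms4a1, the surface channel-like protein of mature B cells known as CD20, read 4321 ± 432 and 2595 ± 260.2. The 1.93-fold difference (0.95 ± 0.20) stopped just short of the 2-fold line. With scaling by the spike-ins it was 0.58. Among genes above background on both arrays, 97.2% had a smaller difference than Ms4a1, 96.5% a smaller one than Cd79b and 96.0% a smaller one than Cd79a. These 3 defining B cell genes therefore sat in the upper tail of the array and below the 2-fold line together.

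The transcription factors differed more than the receptor chains, with 3 of the 4 detected at least 2-fold higher and a median of 1.31 (0.94 with scaling by the spike-ins). Hhex, a homeobox factor needed early in lymphoid development, read 1339 ± 134 and 521 ± 54.8, a 2.99-fold difference (1.58 ± 0.21). Pou2af1, the coactivator that joins POU factors on immunoglobulin promoters, read 3772 ± 377 and 1607 ± 162, a 2.73-fold difference (1.45 ± 0.20). Ebf1, which specifies the B lineage, was far dimmer at 235 ± 27.1 and 121 ± 21.9, and its 2.25-fold difference carried a wider scanner error (1.17 ± 0.31). The Ebf1 difference was 0.80 with scaling by the spike-ins and 0.66 after a different background correction with quantile normalization, both below the 2-fold line.

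Pou2f2, the octamer-binding partner of Pou2af1, read 3726 and 3046 on its brighter probe (0.51 ± 0.20) and 1809 and 1434 on the other (0.55 ± 0.21), so both probes placed it within 2-fold. Pax5, the factor that maintains B cell commitment, passed the background call on neither array at either probe. The first Pax5 probe read 14.3 and 20.4, and the second read 40.9 and 34.3. No fold is given for Pax5, because a level below background on both arrays has no order.

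Surface receptors with an activating or complement-related role split into 4 genes with differences of 0.95 or more (Ms4a1, described above, Fcer2a, Cd180 and Ly86) and 4 between -0.09 and 0.24. Ly86, the secreted partner that holds Cd180 at the surface, read 8451 ± 845 and 3322 ± 333, a 2.95-fold difference (1.56 ± 0.20). Cd180, the Toll-like receptor relative that pairs with it, read 128 ± 18.6 and 21.3 ± 18.5, the latter not well above background. Its difference was at least 2.02-fold. The 2 partners of this complex were both higher in the same library, but the Cd180 bound rests on a dim spot. This bound fell below 2-fold when scaled by the spike-ins, by the median, by quantile normalization or by normexp with quantile normalization. The last gave the lowest log2 value of 0.43. The measured Cd180 difference behind the bound was 2.81 ± 1.28 (scanner error), so a bound under 2-fold does not place the gene within 2-fold.

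Fcer2a, the low-affinity IgE receptor of mature B cells, read 450.0 and 262, a 1.99-fold difference (0.99 ± 0.24) just under the 2-fold line. Cr2, the complement receptor of follicular and marginal zone B cells, gave probes of opposite sign. Its brighter probe read 968 and 1143 (-0.02 ± 0.21) and its dimmer probe read 329.9 and 280.0 (0.45 ± 0.23). Neither probe reached 2-fold, and only the dimmer one differed by more than its scanner error.

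The tetraspanin Cd37 read 16863 and 18796 (0.06 ± 0.20), and its second probe read 5036 and 5908 (-0.01 ± 0.20). Cnr2, the cannabinoid receptor of leukocytes, read 14110 and 13846 (0.24 ± 0.20). Cd24a, a small glycosylphosphatidylinositol-anchored protein of immature lymphocytes, read 1366 and 1686 (-0.09 ± 0.20). These bright surface genes were nearly level between the arrays.

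**Figure D2:**
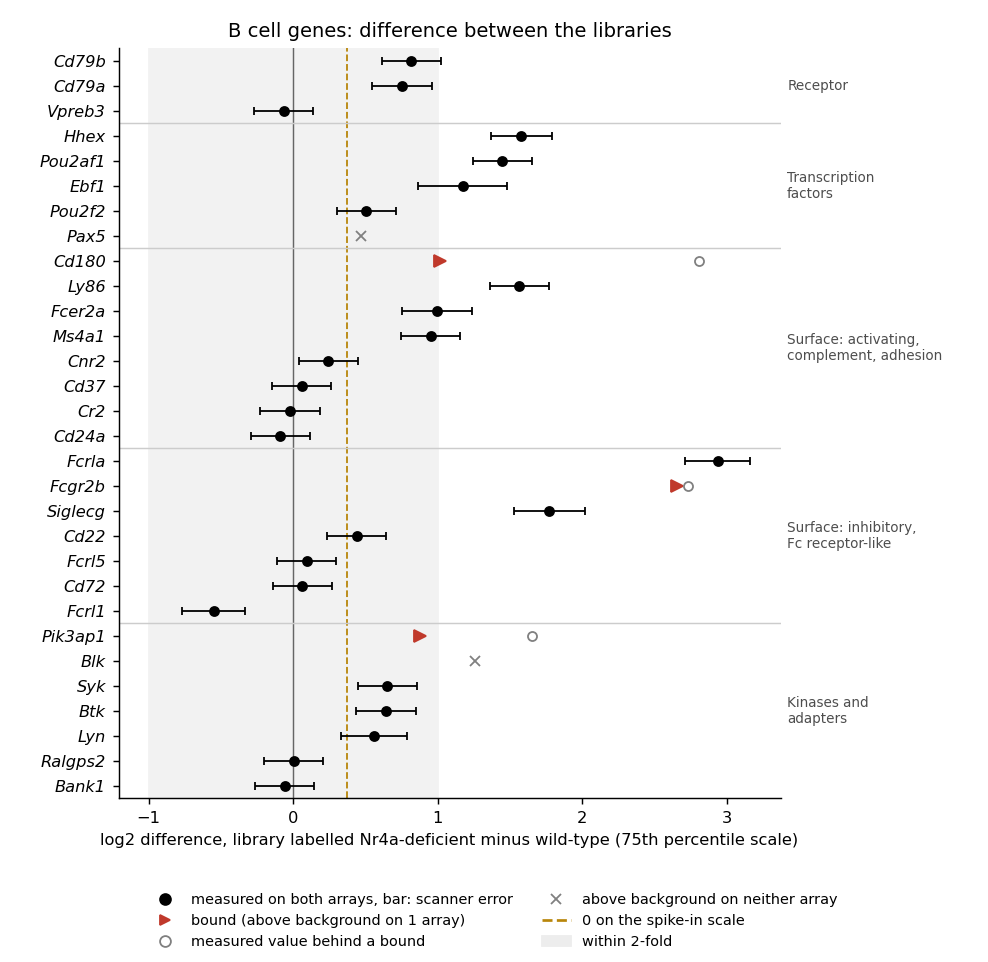
Log2 difference (label Nr4a-deficient minus label wild-type, 1 library each) for each of the 30 genes at the probe that stands for it. Points are genes measured on both arrays with the scanner error as bars, arrowheads are bounds with the measured value as an open circle, crosses are the 2 genes above background on neither array, shading marks 2-fold and the dashed line is 0 on the spike-in scale. Fcrla stands farthest right at 2.94 and Fcrl1 is the lowest at -0.55.

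The inhibitory and Fc receptor-like genes held both ends of the range. Fcrla, an intracellular Fc receptor-like protein of germinal centre and other B cells, read 2064 ± 207 and 313 ± 37.4. The 7.67-fold difference (2.94 ± 0.22) was the largest of the 25 genes measured on both arrays, and 99.8% of all such genes on the array had a smaller one. It lay between 2.57 and 2.99 over the alternatives tried.

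Fcgr2b, the inhibitory IgG Fc receptor, was printed in 10 spots. They read a mean of 399.7 under the label Nr4a-deficient (lowest 366, highest 432, SD 19.4 over spots) and a mean of 69.95 in the wild-type library (lowest 49.97, highest 129, SD 29.7 over spots). The spots of the arrays did not overlap. Only 2 of the 10 wild-type spots were well above background, so the difference is given as at least 6.29-fold. Spots of 1 array share their RNA and are repeats of the reading, not replicates.

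Siglecg, a sialic acid-binding lectin that dampens receptor signalling, read 529 ± 54.1 and 180 ± 24.4 on its brighter probe, a 3.42-fold difference (1.77 ± 0.25). A second Siglecg probe passed only in the library labelled Nr4a-deficient, at 96.0 and 28.6, which is at least 1.51-fold. The other 2 inhibitory surface proteins were much closer to level. Cd22, a lectin of the same family, read 1455 and 1246 (0.44 ± 0.21), and Cd72 read 2086 and 2321 (0.06 ± 0.20) on its first probe and 1908 and 2056 (0.11 ± 0.20) on its second.

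Fcrl1, an activating member of the Fc receptor-like family on B cells, read 318 ± 34.5 and 541 ± 57.4 and was 1.46-fold lower with the label Nr4a-deficient (-0.55 ± 0.22). Of the genes above background on both arrays, 6.82% had a lower difference, so Fcrl1 was not in the outermost tail. Fcrl5, a receptor of the same family with inhibitory motifs, read 12947 and 14096 (0.09 ± 0.20), while its second probe passed the background call on neither array at 30.02 and 15.7. The 3 genes of this family thus ranged from 7.67-fold higher for Fcrla through level for Fcrl5 to 1.46-fold lower for Fcrl1.

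None of the kinases and adapters was counted as at least 2-fold higher or lower, but for Pik3ap1 only a bound is known. Syk, the kinase that docks on phosphorylated Cd79a and Cd79b, read 3873 and 2862 (0.65 ± 0.20), and its dim second probe passed only in the library labelled Nr4a-deficient at 77.3 and 61.4. Btk, the kinase that activates phospholipase C gamma, read 797 and 593 (0.64 ± 0.21). Its second probe passed the background call on neither array, at 45.7 and 38.1. Lyn, a Src family kinase with both activating and inhibitory roles, read 362 and 285 (0.56 ± 0.23). These 3 kinases were higher with the label Nr4a-deficient by nearly the same amount, and each difference exceeded its scanner error.

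Blk, a Src family kinase of B cells that is also known in plasmacytoid dendritic cells, passed the background call on neither array, at 48.3 and 23.4. Pik3ap1, the adapter that links the receptor to phosphoinositide 3-kinase, read 117 ± 17.0 and 43.2 ± 17.8 and was at least 1.84-fold higher with that label, with the wild-type spot not well above background. Bank1, a scaffold that is largely specific to B cells, read 1129 and 1365 (-0.06 ± 0.21) on its brighter probe and 463 and 604 (-0.17 ± 0.21) on the other. Ralgps2, a guanine nucleotide exchange factor printed in 10 spots, read a mean of 1318 (1275 to 1417, SD 45.0) and 1529 (1476 to 1587, SD 42.1), a difference of 0.00 ± 0.21 after scaling. Syk, Btk and Lyn were thus modestly higher and Pik3ap1 at least 1.84-fold higher, while Bank1 and Ralgps2 were level.

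Across the 28 genes, 23 differences lay above 0 and 5 below. With scaling by the spike-ins, the split was 18 above and 10 below, the sign turning for Fcrl5, Cd72, Cd37, Ralgps2 and Cnr2. Fcrla, Siglecg, Hhex, Ly86 and Pou2af1 were at least 2-fold higher under each of the 10 alternatives as well as in the main analysis. Fcgr2b was so under each alternative that gives it a value, which leaves out the filter for genes above background on both arrays. Ms4a1, Fcer2a and Pik3ap1 passed 2-fold under at least 1 alternative, and Ebf1 and Cd180 were lost under at least 1. Blk, which is not among the 28, passed 2-fold only with no filter on dim probes, at signals not well above background on either array. Of the 11 genes with more than 1 probe, Cr2 and Cd37 were measured on both arrays by probes that differed in sign, with every value within 2-fold.

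**Figure D3:**
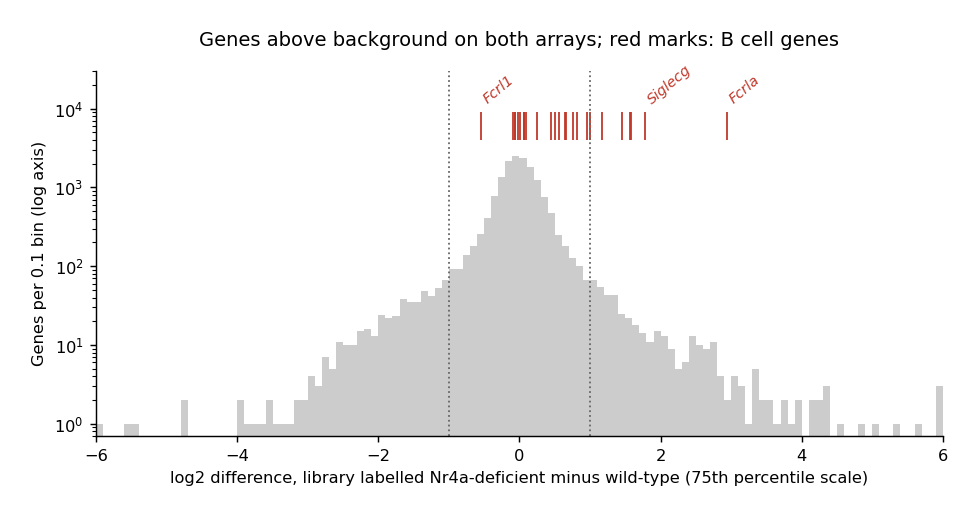
Number of genes (log axis) by log2 difference in bins of 0.1, over the 16298 genes that passed the background call on each array, with red marks for the 25 of the 30 genes measured on both. The outermost bins collect values beyond 6 in either direction. Most red marks lie to the right of 0, with Fcrla at 2.94 in the sparse right tail and Fcrl1 at -0.55 on the left shoulder.

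The 30 genes can be divided by where else they are known to be expressed, a division made by background knowledge and with earlier results known. Of the 15 genes largely restricted to B cells, 14 were detected, 3 were at least 2-fold higher (Ebf1, Pou2af1 and Siglecg) and the median difference was 0.60. Of the 15 also known in plasmacytoid dendritic or myeloid cells, 14 were detected, 5 were at least 2-fold higher (Fcrla, Hhex, Fcgr2b, Cd180 and Ly86) and the median was 0.65. The medians of the 2 sets were therefore nearly equal. The difference between the sets was not tested.

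Genes of the same cells and pathway outside the 30 were set beside the shares of all detected genes, 4.70% higher and 4.94% lower. All 28 other B cell surface and identity genes on the array were detected. Of these, 9 (32.1%) were at least 2-fold higher, 1 (3.57%) was lower and the median was 0.25. With scaling by the spike-ins these became 4 higher, 4 lower and a median of -0.12. The transcription factor Bcl11a was 9.10-fold higher, Plac8 6.21-fold and the Ets factor Spib 5.67-fold, and the costimulatory ligand Cd86 was 5.37-fold lower.

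Of 28 genes downstream of the B cell receptor, 27 were detected, 5 (18.5%) were at least 2-fold higher, 2 (7.41%) were lower and the median was 0.19. With scaling by the spike-ins 2 were higher, 3 lower and the median was -0.19. The phospholipase Plcg2 read 5068 and 2205, a 2.67-fold difference, and the transcription factor Nfatc1 was 2.64-fold higher on its brighter probe and 1.62-fold on the other. Rasgrp3, an exchange factor for Ras, was 2.37-fold higher. Vav3, a guanine nucleotide exchange factor, was 2.42-fold lower, and the tetraspanin Cd81 was 2.06-fold lower. Genes past 2-fold in this list lay on both sides, but the share of lower ones was close to the 4.94% of all detected genes.

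Probes for antibody genes were few. Of 9 immunoglobulin genes, 5 were detected, of which 3 were at least 2-fold higher and 1 was lower. Igh-VJ558 was 5.37-fold higher, the joining chain Jchain 3.71-fold and Ighv14-2 2.505-fold, while Igkv4-53 was at least 4.48-fold lower. The probe for Igkc, the constant region of the kappa light chain, passed the background call on neither array, at 15.2 and 21.4. Of 11 plasma cell genes, 10 were detected, 4 were higher and 1 was lower, with summed signals of 50153 and 46871. Most of both sums came from Xbp1 (20906 and 20542) and Creld2 (13409 and 13402), which were nearly level. The 4 higher genes include Pou2af1, which is among the 30 genes, and Jchain, counted above with the immunoglobulin genes. The chaperone Mzb1 was 6.55-fold higher and Fkbp11 at least 4.08-fold, the folding factor Derl3 was 2.91-fold lower, and Sdc1, the surface marker of plasma cells, passed the background call on neither array. Of 7 genes of B cell precursors, 4 were detected, all with differences below 0 and a median of -0.83. Among them, Il7r, Dntt and Rag1 are also genes of T cells or their precursors, so they do not mark B cell precursors alone. The recombinase gene Rag1 was at least 13.97-fold lower and the other 3 lay within 2-fold, but with scaling by the spike-ins 3 of the 4 were at least 2-fold lower. Igll1, part of the surrogate light chain of precursor B cells, passed the background call on neither array.

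Transcripts known from cells other than B cells were compared on the same arrays. Of all detected genes, 4.70% were at least 2-fold higher and 4.94% lower. Of 20 plasmacytoid dendritic cell genes, a list chosen in part from these data, 20 were detected, 17 were at least 2-fold higher with the label Nr4a-deficient and none was lower, with a median of 2.24. Their summed signal was 278510 and 218126, of which the brightest Siglech probe alone gave 136839 and 147869. Another Siglech probe differed 99.2-fold, so the probes of this gene disagree. Cox6a2 was 114-fold higher, Upb1 49.9-fold and Tcf4 7.57-fold, and the list shares Spib with the B cell genes above. The summed signal of the 28 detected among the 30 genes, as read on each array before scaling, was 99457 and 83832. The part of plasmacytoid dendritic cell transcripts in the differences of the 30 genes was not tested.

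Of 16 macrophage and monocyte genes, 16 were detected, 3 were at least 2-fold higher, 8 were lower and the median was -1.12, with summed signals of 112773 and 196676. Of 9 conventional dendritic cell genes, 8 were detected and 3 were higher, led by Cd209a at least 32.8-fold, with summed signals of 89253 and 85563, of which Ccr7, a chemokine receptor that T cells also express, gave 78380 and 77647. Of 13 erythroid and platelet genes, 9 were detected and 8 were lower, with a median of -1.82 and summed signals of 64980 and 241558. Of 12 NK cell genes, 9 were detected and 3 were higher, with summed signals of 28680 and 17508, of which Nkg7 gave 22872 and 12418. Ncr1 passed the background call on neither array. Of 10 granulocyte genes, 7 were detected and 2 were higher, with summed signals of 3042 and 2926. Of 15 T cell and Treg genes, all were detected and 14 lay within 2-fold, with Il2ra 2.42-fold lower. The part of these lists in the differences of the 30 genes was not tested either.

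**Figure D4:**
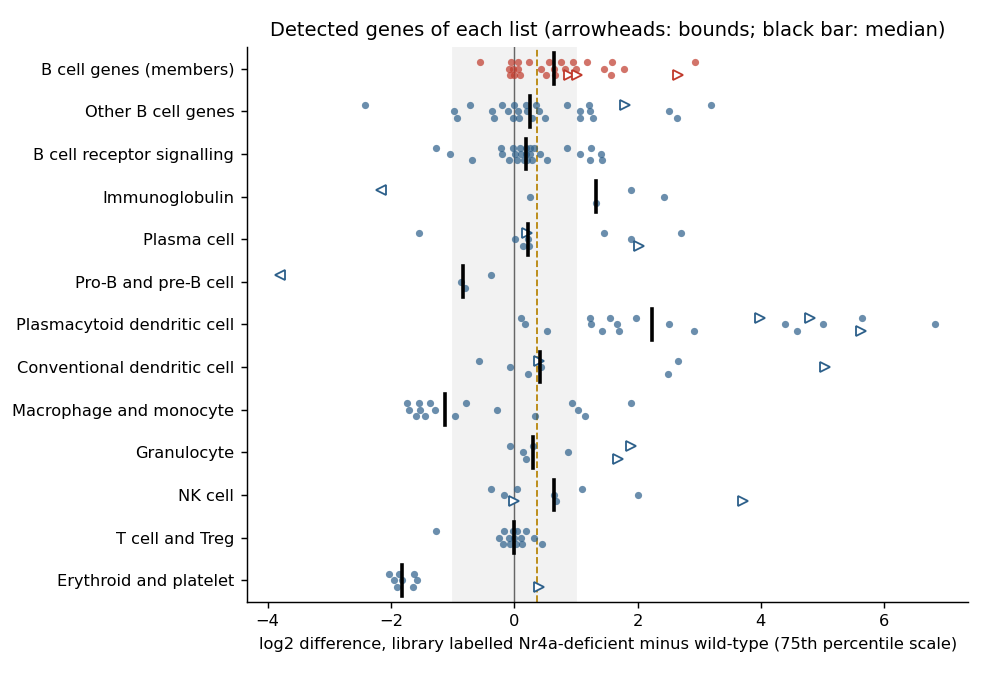
Log2 difference (label Nr4a-deficient minus label wild-type, 1 library each) of each detected gene in each list, with arrowheads for bounds a black bar for the list's median, shading for 2-fold and a dashed line at 0 on the spike-in scale. The 30 genes have a median of 0.65, the plasmacytoid dendritic cell genes 2.24, the macrophage and monocyte genes -1.12 and the erythroid and platelet genes -1.82.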

How the data were processed

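Total RNA from sorted Treg cells was labelled with Cy3 from 600 ng with a low-input kit, per the labels' protocols, 1 library per group. The deposited scanner files hold intensity values made with Agilent Feature Extraction 10.7.3.1, per the file headers, with background subtracted within each array. The authors' value table held the same intensity values on a linear scale, not centred, with medians of 143.7 and 156.8 and 100% of single-spot probes within 1% of the scanner value.

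From these, gene spots without outlier flags were averaged per probe, scaled to the array's 75th percentile and put on the log2 scale. The above-background call needed the scanner's flag on more than 50% of a probe's spots. The brightest such probe stood for its gene. Each array had 43020 gene spots for 39348 probes. The number of arrays limits precision, and for dim probes the reading of the spot limits it further. Gene names outside the 30 were updated through RefSeq where an accession (27234 probes), symbol (3576) or synonym (565) matched, and 8054 kept the array's name. Every one of the 30 genes is named, and from other lists up to 3 genes past 2-fold at each end plus the list's defining markers. The 30 genes and the lists were chosen with earlier results of these data known. Alternatives were other scalings (median, spike-ins, quantile), normexp with offset 50, other filters, probe rules and the authors' table. The script that makes the 2-fold calls was checked on simulated data with known differences. Python 3.11.15, numpy 2.4.6, pandas 2.3.3, R 4.3.3 and limma 3.58.1 (normexp and quantile normalization only) were used. With 1 library per group no statistical test between the groups was run. The genome position of exons and UTRs under the probes was not analysed here, since no mm9 annotation was used.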

Additional observations from a re-analysis of the deposited data

How the results depend on the processing

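Over 10 alternatives, 6 to 10 of the 30 genes were at least 2-fold higher with the label Nr4a-deficient and none was at least 2-fold lower. The median difference of the detected genes, 0.65 on the log2 scale, ranged from 0.28 on the spike-in scale to 0.70. That shift follows from the scale itself, which moves every gene by 0.37. Of 277 single-gene values under these alternatives, 240 stayed within the scanner error, 37 moved further and none turned the sign of a gene past 2-fold. Of all genes past 2-fold, 48.8% were higher in the main analysis (871 higher, 915 lower), 27.1% on the spike-in scale (560 and 1508), 42.8% with the median (779 and 1042) and 57.3% with measured values in place of bounds (1429 and 1064). The counts were 432 and 499 for genes above background on both arrays, 2059 and 1785 with no filter on dim probes, and 565 and 664 after normexp and quantile normalization. Over repeat spots of 1 probe, the difference between the arrays had an SD of 0.47 for dim probes and 0.044 for bright ones. This limits the dim genes Ebf1, Cd180 and Pik3ap1 most. No paired analysis was possible because each group had 1 library, and for the same reason no library could be left out.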
